A study of Homo sapiens with 9 samples.

Results

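A set of 10 genes that oppose or flank Polycomb repression was followed through the knockdown and re-expression of PHF19 in MM1S, an established cell line from human multiple myeloma. The genes were chosen by symbol from the deposited table: the H3K27 demethylase genes KDM6A and KDM6B, the trithorax-type methyltransferase genes KMT2A, KMT2C and KMT2D, the H3K36 methyltransferase gene SETD2, the acetyltransferase genes EP300 and CREBBP, and ASXL1 and BAP1 of a Polycomb-opposing deubiquitinase. All 10 were among the 58387 genes of the table and among the 16600 that passed the filter on low counts. The cells carried a lentiviral shRNA against PHF19 (PHF19_KD, n = 3 libraries), that knockdown plus a PHF19 made resistant to the shRNA (KD_Rescued, n = 2), or a lentiviral empty vector (shEV, n = 3). All were grown in regular medium. For 1 more library the title says knockdown and the shRNA label names shRNA-resistant PHF19. It is shown apart and was left out of the tests, except in the alternatives that count it in 1 or the other group.

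As background, Polycomb repressive complex 2 (PRC2) methylates histone H3 at lysine 27 (H3K27), and PHF19 is an accessory subunit whose Tudor domain binds H3 methylated at lysine 36 (H3K36). KDM6A (UTX) and KDM6B (JMJD3) remove H3K27 methylation. KMT2C and KMT2D write H3K4 monomethylation at enhancers in a complex that also holds KDM6A. EP300 and CREBBP acetylate H3K27, so that it cannot be methylated, and SETD2 writes H3K36 trimethylation. BAP1 with ASXL1 removes ubiquitin from histone H2A, the mark left by Polycomb repressive complex 1. Mutations of several of these genes, KDM6A among them, recur in myeloma.

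Column totals ran from 10609798 to 12024913 estimated counts in PHF19_KD, from 23644123 to 23751353 in KD_Rescued and from 16974728 to 22739741 in shEV. PHF19 itself followed the labels, with 26.0 to 27.5 normalised CPM (each count relative to its library's total, scaled by TMM factors) in PHF19_KD, 218 to 220 in KD_Rescued and 103 to 124 in shEV. The library with disagreeing labels held 63.3 CPM of PHF19 and 10164112 counts in all. Replicate 3 of shEV stood apart from its group, with a chi-square per degree of freedom of 8.14 and 9.15 against the other shEV libraries, where pairs in all groups otherwise gave 1.37 to 2.25. The share of counts from genes of the mitochondrial genome was 9.60% ± 0.518 in PHF19_KD (SD, n = 3), 5.08% ± 0.132 in KD_Rescued (SD, n = 2) and 3.16% ± 0.279 in shEV (SD, n = 3). The part of this share and of depth in the results below was not tested, except where a value is given. Both KD_Rescued libraries were in another sequencing lane than the rest, and the effects of lane and of rescue cannot be told apart. All 10 plasma cell and line markers had counts in each group, their summed level being 8180 to 8290 CPM in PHF19_KD, 10300 to 10400 CPM in KD_Rescued and 11400 to 12300 CPM in shEV. The 6 T and NK cell markers summed to at most 1.65 CPM in PHF19_KD, 2.38 CPM in KD_Rescued and 2.36 CPM in shEV, with CD3D and NKG7 at 0 in every library. The 6 monocyte markers summed to 26.5 to 31.3 CPM in PHF19_KD, 9.77 to 10.5 CPM in KD_Rescued and 20.3 to 23.3 CPM in shEV, most of it CD68 (26.6, 9.27 and 20.6 CPM on average in these groups). The 5 fibroblast markers summed to 9.89 to 10.6 CPM in PHF19_KD, 0.957 to 1.54 CPM in KD_Rescued and 2.53 to 2.78 CPM in shEV, with LUM at 0 throughout, and the 5 epithelial markers to at most 1.32 CPM in any group, with KRT19 at 0.

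The first question was whether the depletion of PHF19 moved the genes that work against PRC2. The level of 1 of them differed strongly. KDM6B was 3.0-fold higher in PHF19_KD than in shEV, and KMT2D and ASXL1 were moderately higher, at 1.46-fold and 1.27-fold. BAP1 was lower, at 0.795-fold, and KDM6A and EP300 were slightly lower, at 0.888-fold and 0.912-fold. KMT2A, KMT2C, SETD2 and CREBBP did not pass the test. Genes were called at a Benjamini-Hochberg adjusted p below 0.05 in the edgeR quasi-likelihood test over all 16600 genes. Thus 3 of the 10 were called higher and 3 lower, where 34.9% of all tested genes were called higher, 34.2% lower and 69.1% either way. Of all called genes 50.5% were higher. With upper-quartile scaling 11615 of the 16600 genes were called, and 60.6% of those called were higher. Under that scaling 6 of all 10 members were called higher and 1 lower, a count on another base than the 60.6%. The libraries of PHF19_KD and shEV did not overlap for 7 of the 10, against 72% of all tested genes. The median log2 fold change of the 10 was 0.05, and that of all tested genes 0.03. The share of the 10 that changed was therefore near the background, and only KDM6B changed at least 2-fold. In these bulk libraries fewer cells that express a gene and less of its RNA per cell cannot be told apart.

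**Figure D1:**
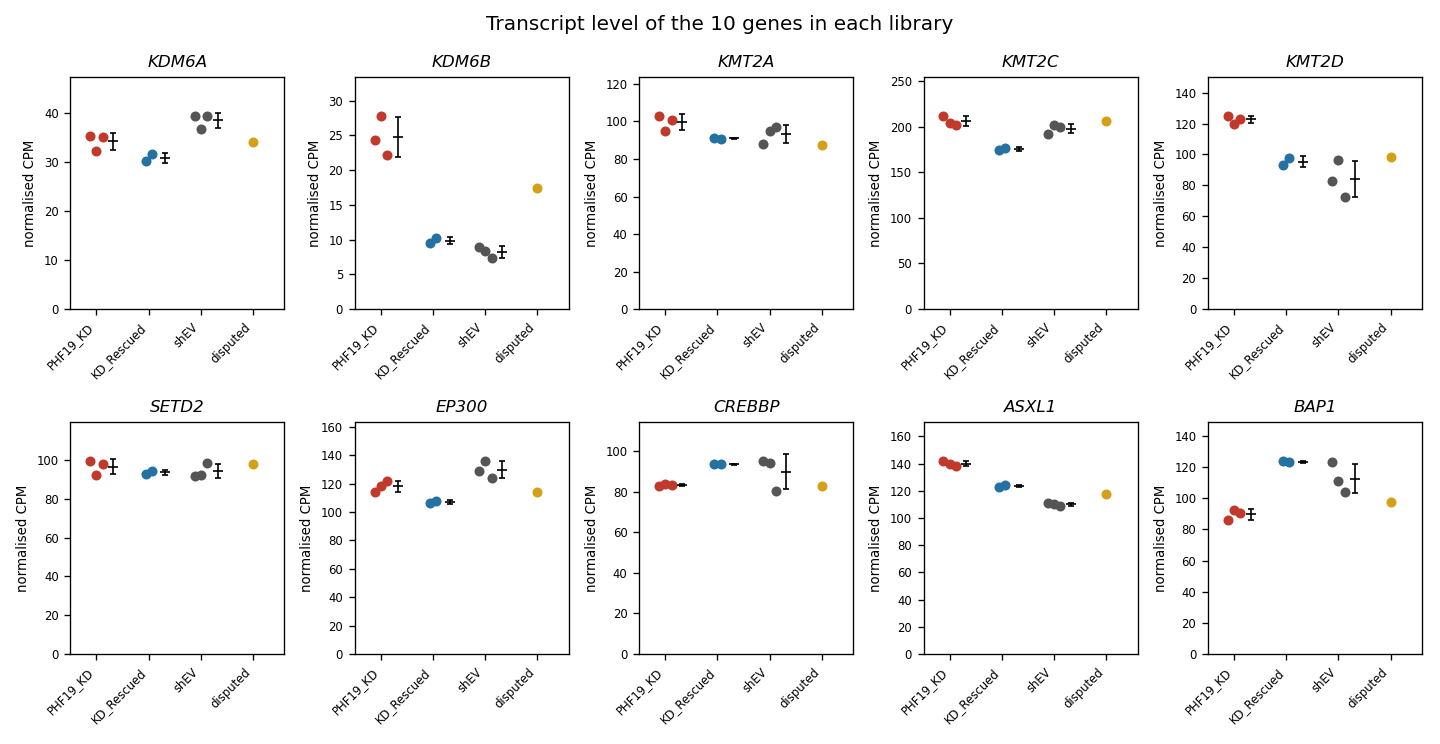
Normalised CPM of each of the 10 genes by library, with 1 point per library; the bar beside each group is the mean ± SD (n = 3 for PHF19_KD and shEV, n = 2 for KD_Rescued), and the yellow point is the library with disagreeing labels. KDM6B stands between 22.1 and 27.8 CPM in PHF19_KD, above the highest shEV library at 9.0 CPM, while the groups of SETD2 overlap.

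KDM6B, the H3K27 demethylase that is known as inducible by inflammatory signals in macrophages, had 24.3, 27.8 and 22.1 CPM in PHF19_KD, against 9.0, 8.29 and 7.37 CPM in shEV. The lowest knockdown library was well above the highest control. The log2 fold change was 1.58 ± 0.11 (SE, adjusted p = 6.73e-08), higher in 3 of 3 libraries and above that of 90.8% of all tested genes. These levels rest on 255 to 336 estimated counts per PHF19_KD library and 125 to 199 per shEV library, all whole numbers. KDM6B had 9.48 and 10.2 CPM in KD_Rescued, both far below every PHF19_KD library. Between KD_Rescued and PHF19_KD its log2 fold change was -1.33 ± 0.12 (SE, adjusted p = 8.56e-07). Both rescued libraries lay above the highest shEV library, but the log2 fold change of KD_Rescued over shEV was 0.25, with a 95% interval from -0.01 to 0.52 (adjusted p = 0.121), and 0 of 22 alternatives called it. The rise in PHF19_KD and the fall in KD_Rescued were each called under all 22 alternatives tried (other scalings, filters, tools and sets of libraries).

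KDM6A, its X-linked paralog, changed little. It had 35.4, 32.3 and 35.1 CPM in PHF19_KD, against 39.4, 36.8 and 39.5 CPM in shEV. The groups did not overlap, with every knockdown library below every control, but the gap was narrow. The log2 fold change was -0.17 ± 0.06 (SE, adjusted p = 0.0285), and the call was lost under 10 of 22 alternatives, with the smallest difference, -0.02, under upper-quartile scaling. KDM6A was lowest in the rescued cells, at 30.2 and 31.6 CPM in KD_Rescued. The difference of KD_Rescued from PHF19_KD was not called (log2 fold change -0.15, 95% interval -0.30 to 0.005, adjusted p = 0.0841), but 8 of 22 alternatives called it. Among these were upper-quartile scaling (-0.30, adjusted p = 0.00295), leaving out PHF19_KD replicate 2 (-0.19, adjusted p = 0.0483) and leaving out shEV replicate 3 (-0.15, adjusted p = 0.0481). That of KD_Rescued from shEV was, at -0.32 ± 0.07 (SE, adjusted p = 0.00265), and it was called under all 22 alternatives. Thus KDM6A was at 80.2% of the shEV mean in KD_Rescued, and at 88.9% in PHF19_KD.

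The balance between these paralogs moved with them, and their ratio within a library does not depend on scaling. KDM6B counts per KDM6A count were 0.687, 0.859 and 0.630 in PHF19_KD, against 0.228, 0.225 and 0.187 in shEV. They were 0.314 and 0.322 in KD_Rescued, below all of PHF19_KD and above all of shEV. Per kb of exon sequence (GENCODE 29), the mean level was 3.68 CPM per kb for KDM6B and 5.78 for KDM6A in PHF19_KD, 1.46 and 5.22 in KD_Rescued, and 1.22 and 6.51 in shEV. KDM6A was thus the more abundant demethylase transcript per length in all groups. Both levels in the library with disagreeing labels lay apart from shEV, KDM6B at 17.4 CPM between PHF19_KD and shEV and KDM6A at 34.1 CPM within the range of PHF19_KD.

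The RefSeq sequences just before the starts of these paralogs (GRCh38.p14, 250 bases each) are shown as background. Polycomb-like proteins such as PHF19 are known to bind unmethylated CpG-rich DNA. The genes were called in opposite directions in PHF19_KD, but the KDM6A call was lost under 10 of 22 alternatives. These data hold neither binding nor DNA methylation, and a link of the sequences to the changes was not tested. Capitals mark each CG. RefSeq gives KDM6B more than 1 start, and which is used in these cells was not measured.
KDM6B upstream start, chr17:7833967-7834216, plus strand: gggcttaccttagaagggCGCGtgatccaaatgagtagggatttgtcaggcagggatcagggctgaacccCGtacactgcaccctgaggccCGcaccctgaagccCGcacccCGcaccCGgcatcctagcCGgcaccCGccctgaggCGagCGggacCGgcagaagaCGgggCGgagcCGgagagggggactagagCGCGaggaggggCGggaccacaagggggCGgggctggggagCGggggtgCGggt
KDM6B downstream start, chr17:7839667-7839916, plus strand: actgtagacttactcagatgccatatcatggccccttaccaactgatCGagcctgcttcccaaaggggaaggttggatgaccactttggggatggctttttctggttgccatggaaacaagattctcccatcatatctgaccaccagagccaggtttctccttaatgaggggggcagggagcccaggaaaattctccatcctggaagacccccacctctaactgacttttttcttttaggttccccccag
KDM6A, chrX:44872938-44873187, plus strand: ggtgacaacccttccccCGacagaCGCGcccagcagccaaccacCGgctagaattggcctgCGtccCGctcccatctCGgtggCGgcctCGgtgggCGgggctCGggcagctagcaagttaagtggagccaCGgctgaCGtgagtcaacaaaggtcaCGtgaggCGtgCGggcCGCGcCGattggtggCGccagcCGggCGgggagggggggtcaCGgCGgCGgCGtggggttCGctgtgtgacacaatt
The upstream KDM6B window holds 21 CG, the downstream one 1 CG and the KDM6A window 27 CG, where the median of 35116 such windows in the RefSeq table is 11. Fewer CG were found in 69.8%, 6.06% and 82.3% of all windows, in the same order. GGGCGG on either strand, which itself holds a CG, occurs 4 times upstream of KDM6B, 0 times at the downstream start and 2 times at KDM6A, and 42.6% of all windows hold it. CCAAT on either strand occurs 2 times and CACGTG, which also holds a CG, 1 time at KDM6A and 0 times at either KDM6B start, against 32% and 6.34% of all windows. These matches describe the sequence alone.

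Of the trithorax-type genes, KMT2D and KMT2C encode the catalytic subunits of the enhancer complex that holds KDM6A. KMT2D had 125, 120 and 123 CPM in PHF19_KD, against 83.0, 96.2 and 72.8 CPM in shEV. The knockdown libraries lay close together and all above the controls, which were more scattered than for the other members (coefficient of variation 14.0% in shEV). This gave a log2 fold change of 0.54 ± 0.08 (SE, adjusted p = 0.000174), and it was called under all 22 alternatives. In KD_Rescued it had 93.0 and 97.8 CPM, below every PHF19_KD library and overlapping with shEV. The log2 fold change of KD_Rescued over PHF19_KD was -0.36 ± 0.09 (SE, adjusted p = 0.00582), and that over shEV 0.18, with a 95% interval from -0.02 to 0.38 (adjusted p = 0.143). The value over shEV was 0.09 without shEV replicate 3, and 0.28 without shEV replicate 2, where it was called (adjusted p = 0.00517).

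KMT2C stayed near the control in the knockdown, at 212, 204 and 202 CPM in PHF19_KD, against 192, 202 and 200 CPM in shEV. The groups lay so close that the lowest knockdown library barely exceeded the highest control, and the difference was not called (log2 fold change 0.06, 95% interval -0.03 to 0.15, adjusted p = 0.234). It was called higher under 2 of 22 alternatives, at 0.15 when genes were filtered at 5 CPM and 0.21 under upper-quartile scaling. It fell in the rescued cells to 174 and 177 CPM in KD_Rescued, below all libraries of both other groups. It differed by log2 fold changes of -0.23 ± 0.05 over PHF19_KD and -0.17 ± 0.05 over shEV (SE, adjusted p = 0.000924 and 0.0108). Each call was lost under 3 of 22 alternatives. That over shEV was lost without KD_Rescued replicate 1 (-0.17, adjusted p = 0.0954), without KD_Rescued replicate 2 (-0.19, adjusted p = 0.0585) and with the disputed library counted as KD_Rescued (-0.12, adjusted p = 0.382). The counts of KMT2D and KMT2C were not whole numbers in 9 and 8 of the 9 libraries, so reads were divided with other genes there and these values are uncertain. KMT2D counts per KMT2C count were 0.587, 0.588 and 0.610 in PHF19_KD and 0.534 and 0.552 in KD_Rescued, against 0.433, 0.476 and 0.364 in shEV, so that the ratio stayed above every control after rescue.

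KMT2A, the MLL1 gene of the trithorax family that is rearranged in leukaemias, had 103, 94.7 and 101 CPM in PHF19_KD, against 87.9, 95 and 97.3 CPM in shEV. The groups overlapped, and the difference was not called (log2 fold change 0.09, 95% interval -0.03 to 0.20, adjusted p = 0.151). It was called higher under 3 of 22 alternatives, at 0.19 when genes were filtered at 5 CPM, 0.24 under upper-quartile scaling and 0.12 without shEV replicate 3 (adjusted p = 0.0296). KD_Rescued had 91.0 and 90.9 CPM, below PHF19_KD by a margin that was not called (log2 fold change -0.13, adjusted p = 0.0765) and within the range of shEV. Of 22 alternatives 7 called this difference, among them those without PHF19_KD replicate 2 (-0.16, adjusted p = 0.046) and without shEV replicate 3 (-0.13, adjusted p = 0.0202). KMT2A, KMT2C and KMT2D are the longest members, with 16.6, 16.9 and 19.4 kb of exons. Over the 376 tested genes with more than 12000 bases of exons the median log2 fold change was 0.07 for PHF19_KD against shEV. It was -0.15 for KD_Rescued against PHF19_KD, beside 0.03 for all tested genes in both comparisons. That 0.03 includes genes without an exon length. In the same order, the largest length class, 4823 genes above 2000 and up to 4000 bases, had medians of -0.03 and 0.10. With an offset for length, the falls of KMT2C and KMT2D in KD_Rescued against PHF19_KD were no longer called (log2 fold changes -0.06 and -0.16, adjusted p = 0.239 and 0.181), while the rise of KMT2D in PHF19_KD was (0.37). With a replicate block beside that offset, KMT2D was still called lower in KD_Rescued (-0.21, adjusted p = 0.0427) and KMT2C was not (-0.07, adjusted p = 0.214).

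SETD2, which writes the H3K36 trimethylation that the Tudor domain of PHF19 binds, was the steadiest member in the main tests. It had 99.6, 92.2 and 98.0 CPM in PHF19_KD, 92.8 and 94.6 CPM in KD_Rescued, and 92.0, 92.2 and 98.4 CPM in shEV. All groups overlapped. The log2 fold change of PHF19_KD over shEV was 0.04 with a 95% interval from -0.07 to 0.14 (adjusted p = 0.525). Those of KD_Rescued were -0.04 over PHF19_KD and -0.01 over shEV, with 95% intervals from -0.16 to 0.08 and from -0.12 to 0.11. In PHF19_KD against shEV, 2 of 22 alternatives called SETD2 higher, at 0.13 with genes filtered at 5 CPM and 0.19 under upper-quartile scaling. In KD_Rescued against PHF19_KD, 1 of 22 called it lower, at -0.20 under upper-quartile scaling.

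**Figure D2:**
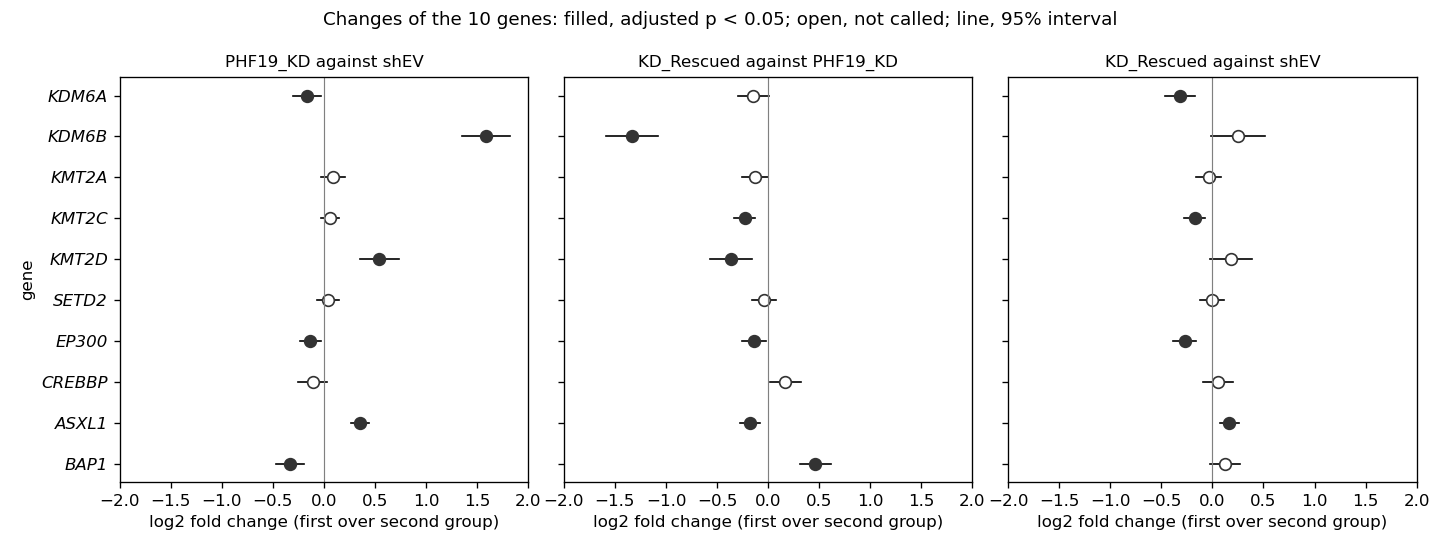
Log2 fold change of each gene with its 95% interval in the 3 comparisons; filled points have an adjusted p below 0.05 and open points do not. KDM6B stands apart at 1.58 in PHF19_KD against shEV and at -1.33 in KD_Rescued against PHF19_KD, while no gene exceeds 0.32 in size in KD_Rescued against shEV.

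The acetyltransferase paralogs EP300 and CREBBP, which write H3K27 acetylation, parted after rescue. EP300 had 114, 118 and 122 CPM in PHF19_KD, against 129, 136 and 124 CPM in shEV. The knockdown libraries lay just below the controls, with a log2 fold change of -0.13 ± 0.05 (SE, adjusted p = 0.027), and 9 of 22 alternatives did not call it. The direction turned with upper-quartile scaling (0.02). EP300 was lower still in the rescued cells, at 106 and 108 CPM in KD_Rescued. Its log2 fold change there was -0.14 ± 0.05 over PHF19_KD (SE, adjusted p = 0.0367), which 8 of 22 alternatives did not call, and -0.27 ± 0.05 over shEV (SE, adjusted p = 0.00161), which all 22 called.

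CREBBP had 82.8, 83.9 and 83.1 CPM in PHF19_KD, against 95.2, 94.3 and 80.1 CPM in shEV. The knockdown libraries lay within 2 CPM of each other, and overlap came from shEV replicate 3 alone. Its log2 fold change was -0.11 (95% interval -0.25 to 0.03, adjusted p = 0.137), and 4 of 22 alternatives called it lower. These were the fit without shEV replicate 3 (-0.19, adjusted p = 0.000287), no filter (-0.20, adjusted p = 0.00195) and the length offset. The offset gave -0.18 both alone (adjusted p = 0.0259) and with a replicate block (adjusted p = 0.0104). The direction turned with upper-quartile scaling (0.04). KD_Rescued had 93.4 and 93.5 CPM, above every PHF19_KD library, at a log2 fold change of 0.17 that was not called (adjusted p = 0.0539), and was called under 6 of 22 alternatives, among them that without shEV replicate 3 (0.17, adjusted p = 0.000778). CREBBP counts per EP300 count were 0.878 and 0.867 in KD_Rescued, against 0.725, 0.709 and 0.684 in PHF19_KD, and 0.741, 0.695 and 0.646 in shEV. The ratio in the rescued libraries thus lay above all others, whereas PHF19_KD and shEV overlapped.

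ASXL1 and BAP1, partners in the H2A deubiquitinase, moved in opposite directions in the knockdown. ASXL1 had 142, 140 and 138 CPM in PHF19_KD, against 111, 110 and 109 CPM in shEV, the tightest control group of all members. Its rise came to a log2 fold change of 0.35 ± 0.04 (SE, adjusted p = 7.9e-06). With 123 and 124 CPM, KD_Rescued lay between both groups without overlap. This was a log2 fold change of -0.18 ± 0.04 over PHF19_KD and 0.17 ± 0.04 over shEV (SE, adjusted p = 0.00343 and 0.00991). The call over PHF19_KD was lost under 2 of 22 alternatives, namely no filter (-0.14, adjusted p = 0.0679) and the disputed library counted as PHF19_KD (-0.19, adjusted p = 0.0806). That over shEV was lost under 9 of 22.

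BAP1, the catalytic subunit and a tumour suppressor, had 85.8, 92.6 and 90.7 CPM in PHF19_KD, against 123, 111 and 104 CPM in shEV. Every knockdown library was below every control, at a log2 fold change of -0.33 ± 0.06 (SE, adjusted p = 0.00054). KD_Rescued had 124 and 123 CPM, above all of PHF19_KD (log2 fold change 0.46 ± 0.07, SE, adjusted p = 9.66e-05). It overlapped with shEV, and that difference was not called (log2 fold change 0.13, 95% interval -0.02 to 0.28, adjusted p = 0.154). It was 0.07 without shEV replicate 3, and 0.20 without shEV replicate 1, where it was called (adjusted p = 0.023). The fall and the recovery of BAP1 were called under all 22 alternatives, as was the rise of ASXL1. BAP1 counts per ASXL1 count were 0.603, 0.663 and 0.655 in PHF19_KD, against 1.12, 1.01 and 0.949 in shEV. They were 1.01 and 0.986 in KD_Rescued, within the range of the controls.

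**Figure D3:**
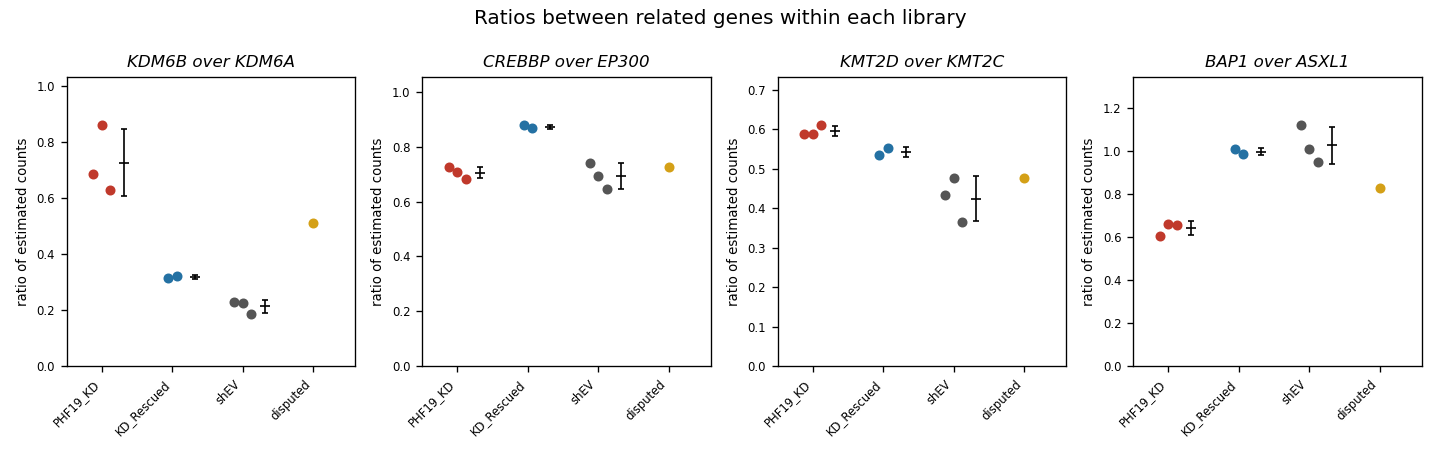
Ratio of estimated counts within each library for 4 related gene pairs, with 1 point per library and the mean ± SD of each group (n = 3 for PHF19_KD and shEV, n = 2 for KD_Rescued); the yellow point is the library with disagreeing labels. KDM6B over KDM6A averages 0.725 in PHF19_KD and 0.213 in shEV, and BAP1 over ASXL1 averages 0.640 in PHF19_KD and 1.02 in shEV.

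Next, cells with PHF19 restored were set against the knockdown. Between KD_Rescued and PHF19_KD, 1 of the 10 genes was called higher (BAP1) and 5 lower (KDM6B, KMT2C, KMT2D, EP300 and ASXL1), where 33.9% of all tested genes were called higher, 29.5% lower and 63.4% either way. Of all called genes 53.4% were higher. With upper-quartile scaling 10547 of the 16600 genes were called, and 42.1% of those called were higher. Under that scaling 8 of all 10 members were called lower and 1 higher, a count on another base than the 42.1%. The libraries did not overlap for 9 of the 10 genes, all but SETD2, against 77.2% of all tested genes. The median log2 fold change of the 10 was -0.14, and that of all tested genes 0.03. This comparison and the first share the PHF19_KD libraries. Side by side, KDM6B had log2 fold changes of -1.33 in KD_Rescued against PHF19_KD and 1.58 in PHF19_KD against shEV. In the same order, KMT2D had -0.36 and 0.54, ASXL1 -0.18 and 0.35, and BAP1 0.46 and -0.33. EP300 was called lower in both (-0.14 and -0.13). KMT2C (-0.23 and 0.06) was called only in KD_Rescued against PHF19_KD, and KDM6A (-0.15 and -0.17) only in PHF19_KD against shEV. Counting the library with disagreeing labels as KD_Rescued left 3 genes called lower.

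The third comparison set the rescued cells against the control. Of the 10 genes, 1 was called higher (ASXL1) and 3 lower (KDM6A, KMT2C and EP300), where 20.7% of all tested genes were called higher, 19.1% lower and 39.8% either way. Of all called genes 52.1% were higher, or 38.0% with an offset for length. The libraries did not overlap for 5 of the 10, against 61.7% of all tested genes. No difference reached 2-fold, the range being -0.32 to 0.25 on the log2 scale, and the median 0.02, beside 0.02 for all tested genes. PHF19 was 1.87-fold higher in KD_Rescued than in shEV.

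Genes that work with the 10 were described from lists of their complexes, each read against the same background of 34.9% higher and 34.2% lower in PHF19_KD, and 33.9% higher and 29.5% lower in KD_Rescued against PHF19_KD. A list of 16 other genes held subunits of the COMPASS and MLL methyltransferase complexes and further genes of the KMT2 and SETD1 families. In the knockdown 14 were lower and 0 higher (median log2 fold change -0.48, against 0.03 for all tested genes). KMT2E, SETD1A and SETD1B were among those lower, at -0.18, -0.46 and -0.23, while KMT2B and the menin gene MEN1 were not called. These 5 are named here after their values were seen. The lower subunits included the scaffold gene PAXIP1, which has shared reads, at -1.10 ± 0.08 (SE), and the core subunit gene ASH2L at -0.88 ± 0.06 (SE). With upper-quartile scaling 11 were lower and 2 higher. In KD_Rescued against PHF19_KD, 13 of the 16 were higher and 0 lower (10 and 1 with upper-quartile scaling, 7 and 0 with the library of disputed identity added to KD_Rescued), WDR5 among them at 1.00 ± 0.05 (SE, shared reads). SWI/SNF remodelling subunits, also of the trithorax group, were lower in 13 of 14 cases in PHF19_KD, or 9 with upper-quartile scaling. ACTL6A changed by -1.09 ± 0.05 and PBRM1 by -0.89 ± 0.05 (SE, shared reads in both), while the ATPase gene SMARCA2 was higher (0.47 ± 0.05, shared reads). In KD_Rescued, 8 of the 14 were higher and 1 lower than in PHF19_KD, but only 4 were higher with upper-quartile scaling and 3 with the disputed library added. Among 9 partners of the BAP1 and ASXL1 complex, 4 were higher and 1 lower in PHF19_KD, and over the alternatives 3 to 6 were higher and 0 to 2 lower. The glycosyltransferase gene OGT reached 466 ± 35.1 CPM in PHF19_KD and 432 ± 3.21 CPM in KD_Rescued, against 228 ± 11.3 CPM in shEV (SD, n = 3, 2 and 3). The ASXL1 paralog ASXL3 changed by 2.26 ± 0.22 (SE) in PHF19_KD, at low mean levels of 3.86 CPM against 0.796 CPM in shEV. On the opposing side, 5 of 6 core H3K27 methyltransferase genes were lower in PHF19_KD, the catalytic subunit gene EZH2 at -2.02 (shared reads), and 1 was higher, its paralog EZH1 at 0.91 ± 0.06 (SE). In KD_Rescued against PHF19_KD, 5 were higher and 1 lower. None of these lists was tested against other genes.

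**Figure D4:**
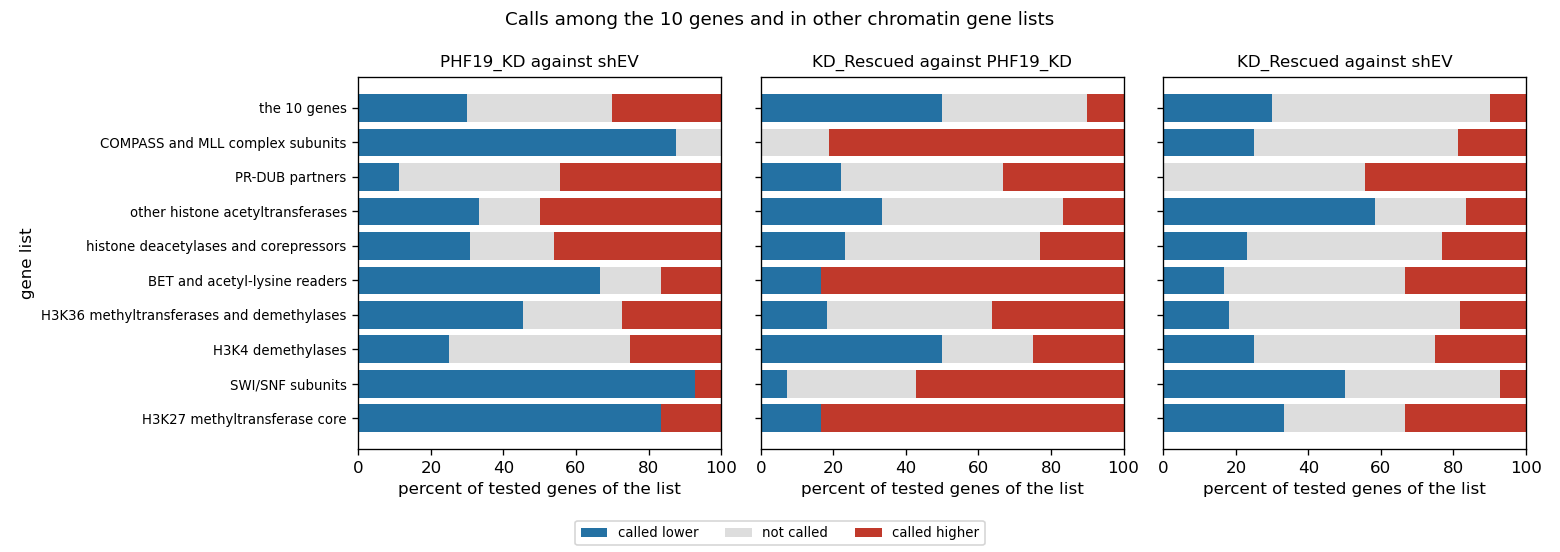
Percent of the tested genes of each list called lower, not called and called higher in the 3 comparisons (edgeR, adjusted p below 0.05). In PHF19_KD against shEV the 10 genes split into 3 lower, 4 not called and 3 higher, while 14 of 16 genes in the COMPASS and MLL list were lower.

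By level over all 8 fitted libraries, the genes whose log2 CPM followed KDM6A most closely among 9931 others were FXR1, GPATCH8 and PPP3CB, with Pearson r of 0.9734, 0.9626 and 0.9609. For KDM6B they were LDB1, IFT140 and RPL12, with r of 0.9972, 0.9969 and 0.9946, and 699 genes had an r of at least 0.95 with KDM6B, against 6 with KDM6A. These correlations describe points that share libraries, depth and groups. FXR1, IFT140 and RPL12 have shared reads. LDB1 averaged 71.1 CPM in PHF19_KD and 45.5 CPM in KD_Rescued, against 41.9 CPM in shEV.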

How the data were processed

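Libraries came from an Illumina TruSeq kit, per the labels. The deposited table holds the authors' estimated counts per gene, 1 column per library, not scaled between libraries. The submitters' processing notes list CASAVA, RSEM and hg19 but no roles, and the table's own name points to salmon, so the counting program is unsettled. No annotation, filter or strand setting is stated in the sources used here, so reads of overlapping or antisense genes may be mixed. Symbols are those of the table.

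Estimated counts were rounded and tested with edgeR 4.0.16 (R 4.3.3): filterByExpr, TMM scaling, robust glmQLFit and glmQLFTest, in a single fit of all 8 libraries with undisputed labels. Benjamini-Hochberg adjustment was over 16600 genes. SE is the log2 fold change over the root of F, and normalised CPM are scaled by TMM. Reads shared with other genes are taken from counts not whole within 0.01. Exon lengths are from GENCODE 29, for 83.1% of tested genes. The code was tested on simulated data. Alternatives used limma 3.58.1 and DESeq2 1.42.0, other scalings, filters, depth, length and samples. Named genes are the 10, PHF19, at most 4 per list (the 2 called rises and 2 called falls with the lowest adjusted p) and the 3 most correlated with each demethylase over 8 libraries, among genes with a mean log2 CPM of at least 3. Members and lists were chosen with earlier results of these data known. Nothing in the labels states that replicates came from separate cultures (PHF19_KD names have a common stem), so the spread behind each p may be technical.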

Additional observations from a re-analysis of the deposited data

Results flagged for a closer look

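Of the 10 genes, 4 had a level in the library with disagreeing labels that exceeded every shEV library, although that library was left out of the comparisons above except where an alternative counts it in a group. KDM6B had 17.4 CPM there, against at most 9.0 CPM in shEV, and lay below the lowest PHF19_KD library at 22.1 CPM. ASXL1 had 118 CPM, against at most 111 CPM in shEV. KMT2C had 206 CPM, against at most 202 CPM in shEV, and KMT2D 98.3 CPM, against at most 96.2 CPM. The counts of KMT2C and KMT2D share reads with other genes. Other members lay below every shEV library there. KDM6A had 34.1 CPM, against at least 36.8 CPM in shEV, and EP300 114 CPM, against at least 124 CPM. BAP1 had 97.8 CPM, against at least 104 CPM, and KMT2A 87.3 CPM, against at least 87.9 CPM. How many of all tested genes lay outside the shEV range in this library was not counted. No background share therefore stands beside these cases. With 1 library and labels that disagree, none of these values was tested.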

How the results depend on the processing

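The 22 alternatives each gave a value for every one of the 10 genes. For PHF19_KD against shEV, 181 of 220 values kept direction and side of the threshold, 17 lost the call, 11 gained it and 11 reversed. For KD_Rescued against PHF19_KD these were 182, 14, 22 and 2, and for KD_Rescued against shEV 198, 12, 2 and 8. The cause of the reversals was not tested. In PHF19_KD against shEV they were EP300 (0.0236) and CREBBP (0.0446) under scaling by upper quartile. KMT2A, KMT2C and SETD2 reversed with all genes kept (-0.0025, -0.0336 and -0.0547), with a length offset (-0.0546, -0.0887 and -4e-04) and with that offset and a replicate block (-0.0546, -0.0884 and -7e-04). In KD_Rescued against PHF19_KD, KMT2A reversed with the length offset (0.0372) and with offset and block (0.0537). In KD_Rescued against shEV, SETD2 (-0.0283 to 0.0236 when a library was left out) reversed with a filter at 5 CPM (0.0155), thinned libraries (0.0432), a replicate block (0.0155), without KD_Rescued replicate 1 (0.0023) and without shEV replicate 3 (0.0236). CREBBP (-0.0213 to 0.0986) reversed without that library and, like BAP1, when the disputed library joined KD_Rescued (-0.0277 and -0.0034).

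In PHF19_KD against shEV, upper-quartile scaling and a filter at 5 CPM each called 6 of the 10 genes higher and 1 lower. With that filter 8960 of 11478 genes were called, and 50.2% of those called were higher. The median log2 fold change was then 0.003 over all tested genes and 0.14 over the 10. With upper-quartile scaling 11615 of 16600 were called, 60.6% of these higher. A fit of PHF19_KD and shEV only, or the disputed library counted in either group, left 1 of the 10 lower. Leaving out a replicate gave 3 to 4 higher and 1 to 4 lower, the 1 being without PHF19_KD replicate 2. In KD_Rescued against PHF19_KD, 8 were lower under scaling by upper quartile, where 10547 of 16600 genes were called and 42.1% of these were higher. With all genes kept, or with the length offset, with or without the block, 2 were higher and 3 lower. Without mitochondrially encoded genes or with only those groups 2 were higher. Leaving out a replicate gave 1 to 2 higher, the 2 being without shEV replicate 3. In KD_Rescued against shEV, 0 were higher with DESeq2 or its size factors, no filter, thinned libraries, only those groups, or the disputed library counted in either group, and 0 to 2 when a replicate was left out. There were 0 without either KD_Rescued replicate and 2 without shEV replicate 1 or 2. Counting the disputed library as KD_Rescued reduced the genes called among all tested to 6207 against PHF19_KD and 2464 against shEV, and counting it as PHF19_KD gave 4047 in KD_Rescued against shEV, from 6599. Leaving out a replicate there gave 4048 to 7539, the lowest without KD_Rescued replicate 2 and 4253 without KD_Rescued replicate 1. Upper-quartile scaling moved the median over all genes (log2) to 0.19 in PHF19_KD against shEV and to -0.12 in KD_Rescued against PHF19_KD, from 0.03 in both.

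Whether the replicate numbers pair the libraries cannot be decided with so few libraries per group. Same-numbered PHF19_KD and shEV libraries had correlations of their deviations of -0.039, 0.275 and 0.129. Differently numbered ones had values from -0.277 to 0.161. With a replicate block, 11537 genes were called in PHF19_KD against shEV, and no call among the 10 genes changed.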

Other observations

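Further lists held other writers, erasers and readers of histone marks, whose counts are read against 34.9% of all tested genes called higher and 34.2% lower in PHF19_KD against shEV. The H3K4 demethylase gene KDM5B averaged 54.9 ± 0.746 CPM in PHF19_KD and 5.83 ± 0.752 CPM in KD_Rescued, against 3.30 ± 0.430 CPM in shEV (SD, n = 3, 2 and 3), a log2 fold change of 4.07 ± 0.10 in PHF19_KD against shEV (SE, adjusted p = 9.26e-12, edgeR). KDM1A (LSD1), an H3K4 demethylase of another family, was lower (-0.35 ± 0.05, SE), and the other genes of that list of 4 were not called. Of 11 genes that write or remove H3K36 methylation, 3 were higher and 5 lower in PHF19_KD, near that background. The methyltransferase gene WHSC1 (NSD2) averaged 94.0 ± 2.98 CPM in PHF19_KD and 306 ± 4.80 CPM in KD_Rescued, against 282 ± 5.11 CPM in shEV, whereas ASH1L, with shared reads, changed by 0.80 ± 0.06 (SE) in PHF19_KD.

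Histone deacetylase and corepressor genes were higher in 6 and lower in 4 of 13 cases in PHF19_KD, again near the background. HDAC11 changed by 2.37 ± 0.18 (SE), at low mean levels of 6.5 CPM in PHF19_KD against 1.26 CPM in shEV. NCOR1, with shared reads, changed by -0.76 ± 0.05 (SE). Other acetyltransferase genes were higher in 6 and lower in 4 of 12 cases, but over the alternatives the count of higher genes ran from 0 (the disputed library counted as KD_Rescued) to 7 and that of lower genes from 1 (upper-quartile scaling) to 5. They included HAT1, which acetylates newly made histone H4, at -1.93 ± 0.06 (SE). Among 12 BET and other acetyl-lysine reader genes 2 were higher and 8 lower, or 3 and 5 with upper-quartile scaling. YEATS4 changed by -1.66 ± 0.08 and BRD3, with shared reads, by 0.85 ± 0.09 (SE). In KD_Rescued against PHF19_KD, 10 of these 12 were higher and 2 lower, and 5 and 2 when the library whose labels disagree joined KD_Rescued.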
